A study of Homo sapiens with 8 samples.

Results

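RNA-seq counts of the BCL2 family of apoptosis regulators were compared between SP and NSP cells sorted from J82, a human cell line derived from a bladder carcinoma. The family was taken as 10 genes chosen by name, which are BCL2, BCL2L1, MCL1, BAX, BAK1, BID, BAD, BBC3, PMAIP1 and BCL2L11, out of the 57820 genes of the count table. All 10 were found by their Ensembl identifiers. Side population (SP) cells are those that stain weakly with the DNA dye Hoechst in flow cytometry, and non-side population (NSP) cells are the stained remainder. The cells were grown in DMEM with 10% FBS. Both populations were sorted from untreated J82 cells, so no library comes from cells exposed to cisplatin, and 7-AAD was used at the sort to leave out dead cells. There were 4 SP and 4 NSP libraries, numbered 1 to 4 in each group. The sources used here do not say whether libraries of a group came from separate cultures, so the p-values measure only the spread between these libraries.

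Proteins of the BCL2 family decide whether the outer membrane of the mitochondrion stays closed or is opened so that cytochrome c leaks out and caspases are activated. Survival members (BCL2, the BCL-XL protein of BCL2L1, and MCL1) bind and hold back the effectors BAX and BAK1, which form the pores, and the BH3-only members (BID, BAD, PUMA from BBC3, NOXA from PMAIP1 and BIM from BCL2L11) carry stress signals to them. MCL1 has a short-lived messenger RNA and protein, and NOXA binds MCL1 with preference. Cisplatin kills cells largely through this route, so the balance within the family is commonly examined in drug-resistant cells.

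The strand of the counts bears on every value given here. The strand setting of the counting is not named in the sources used here. MT-ND6, the only protein-coding gene on the light strand of the mitochondrial genome, held 321592 counts over the 8 libraries, while the other 12 held 1636 to 24004 each. It took 70.2% to 83.6% of the mitochondrial protein-coding counts in each library, although its transcript is normally among the rarer ones. TUBA1B-AS1 held 82507 counts and TUBA1B, a tubulin gene on the other strand, 1711, and VIM-AS1 held 52960 and VIM 5749 (pairs chosen after their values were seen). The lncRNA had more counts per kb than the protein-coding gene across its exons in 88.2% of 595 pairs on opposite strands, and lncRNAs took 27.6% to 33.9% of all counts. Such values are those that assignment of most reads to the opposite strand would give. The counts under a member's name may then be the few of its own reads that carry the other strand, or reads of antisense RNA, whether or not another gene overlaps it. Which of these they are cannot be told apart from the table, so the values describe assigned counts and were not shown to be levels of the members' mRNA.

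The counts assigned to MCL1 rose in SP cells, by 2.06-fold, and no member was called lower in the fit without a term for the replicate number. BAK1 was called at 2.45-fold higher, but narrowly (adjusted p = 0.0479 from edgeR). It entered the test through the SP libraries, in which it is high, DESeq2 did not call it (adjusted p = 0.101), and the call was lost in 7 of 8 fits with a library left out. BBC3 and PMAIP1 had lower means in SP cells and BCL2L11 a higher mean, and none of these passed the test as fitted, without a term for the replicate number. BCL2L1, BAX, BID and BAD had fold changes within 1.2 of no change. A gene was called where edgeR's quasi-likelihood test, adjusted over all genes tested by Benjamini-Hochberg, gave p under 0.05 and the fold was over 1.3. The 9 members with enough reads to be tested gave 2 calls, against 3.66% of all 9309 genes tested. Calls higher in SP cells made up 1.63% and calls lower 2.03% of all genes tested. Every library of one group lay above every library of the other for 2 members, again MCL1 and BAK1, and for 9.75% of all genes tested. Of these 2 members, only MCL1 passed the filter on low counts in all libraries of both groups, so BAK1 adds no independent support to either count. The sources used here do not say whether SP and NSP libraries of the same number belong together. With the number taken as a pairing, as a block in the model, BBC3 was called lower as well, where 12.9% of all genes were called. The median log2 fold change was -0.04 over the 9 tested members and 0.015 over all genes tested.

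SP libraries held between 1431823 and 1697218 counts and NSP libraries between 1489033 and 2073526, and CPM here is the count scaled to the TMM-normalized library size. ABCB1, which pumps Hoechst and many drugs out of cells, was called higher in SP cells (log2 fold change 2.96, adjusted p = 7.44e-04 from edgeR). It had 35 to 57 counts in SP and 3 to 13 in NSP libraries. Like BAK1, it entered the test through the SP libraries, in which it is high. ABCG2, the other pump of the dye, had only 14 counts over the 8 libraries. Of 14 urothelial and epithelial markers, 5 were tested. KRT8, KRT18 and KRT7 held 47783, 5472 and 6229 counts, whereas EPCAM held 3 and UPK3A and TP63 held 0. KRT7 was called lower in SP cells (log2 fold change -1.35, adjusted p = 0.00342 from edgeR), while the other 4 tested ran from -0.29 for KRT8 to 0.22 for UPK2 and were not called. All 5 mesenchymal markers were tested, and FN1 was called lower (log2 fold change -1.25, adjusted p = 8.63e-04 from edgeR). VIM, at -0.76, was not called (adjusted p = 0.0784 from edgeR) but was with the replicate block and by DESeq2 (adjusted p = 0.0458), and ZEB1, CDH2 and ZEB2 stood at -0.46, -0.03 and 0.52, not called. The marker values are assigned counts too, not shown to be mRNA levels. Genes of the other strand lie across 1275 bp of VIM exons and 314 bp of KRT7 exons, and KRT8 and KRT18 share 525 bp. Of 5 markers of blood and endothelial cells, 4 were found in the table, of which PTPRC, CD3E and HBB were at 0 in all 8 libraries and CDH5 had 1 count. Mitochondrially encoded genes took 3.46% to 7.57% of the counts in SP libraries and 1.65% to 4.01% in NSP libraries. Overlap with a gene of the count table on the opposite strand is given below for the members that have one. If reads were assigned to the opposite strand, a partner's reads from the overlap would be counted under the member. The partner's own count, even a low one, would then not measure them. How much such an overlap adds to a member was not tested.

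Promoter sequences are shown for BBC3 and BCL2L11, since each was the only member with a match to 1 of the motifs reported here, AP-1 and the forkhead core. RefSeq promoters of GRCh38.p14, 250 bases before the start site and 50 after it, were found for 9 of the 10 genes, with 15 entries in all. No entry was found for MCL1. The BBC3 window (chr19:47232618-47232917, minus strand) holds an AP-1 motif and the BCL2L11 window (chr2:111120664-111120963, plus strand) a forkhead core, both in capitals.

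BBC3: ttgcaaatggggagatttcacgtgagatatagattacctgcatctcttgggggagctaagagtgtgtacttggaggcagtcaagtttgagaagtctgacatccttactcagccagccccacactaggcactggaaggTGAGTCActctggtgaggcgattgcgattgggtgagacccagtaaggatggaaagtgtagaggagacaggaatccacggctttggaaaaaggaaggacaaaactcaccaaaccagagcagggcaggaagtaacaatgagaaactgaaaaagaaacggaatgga
BCL2L11: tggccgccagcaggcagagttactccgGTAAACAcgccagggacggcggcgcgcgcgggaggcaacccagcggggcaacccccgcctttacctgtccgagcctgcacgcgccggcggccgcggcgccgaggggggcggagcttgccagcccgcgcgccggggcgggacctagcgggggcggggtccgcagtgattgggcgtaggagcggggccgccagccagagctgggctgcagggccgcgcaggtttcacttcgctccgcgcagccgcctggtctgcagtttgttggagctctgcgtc

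The forkhead core was searched as GTAAANA on both strands and was found in BCL2L11 alone among the 9 genes, 223 bases before the start site, and in 10.8% of all 35093 promoters. The AP-1 motif TGANTCA was found in BBC3 alone and in 7.7% of all promoters, and the CRE motif TGACGTCA in 0 of the genes and in 1.8%. E-boxes (CACGTG) were found in BAX, BID and BBC3 and in 7.3% of all promoters. GC boxes (GGGCGG) and CCAAT boxes (CCAAT) were found in 7 and 5 of the 9 genes and in 44.9% and 34.6% of all promoters. For every motif, a member counts if any of its entries has a match, while the share of all promoters is per entry. The units are unlike, since the 9 genes have 15 entries. BBC3, with a GC content of 48.0%, was the lowest of the entries, against a median of 58.7% over all promoters. A match is a description of these windows, and binding to them was not measured here.

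**Figure D1:**
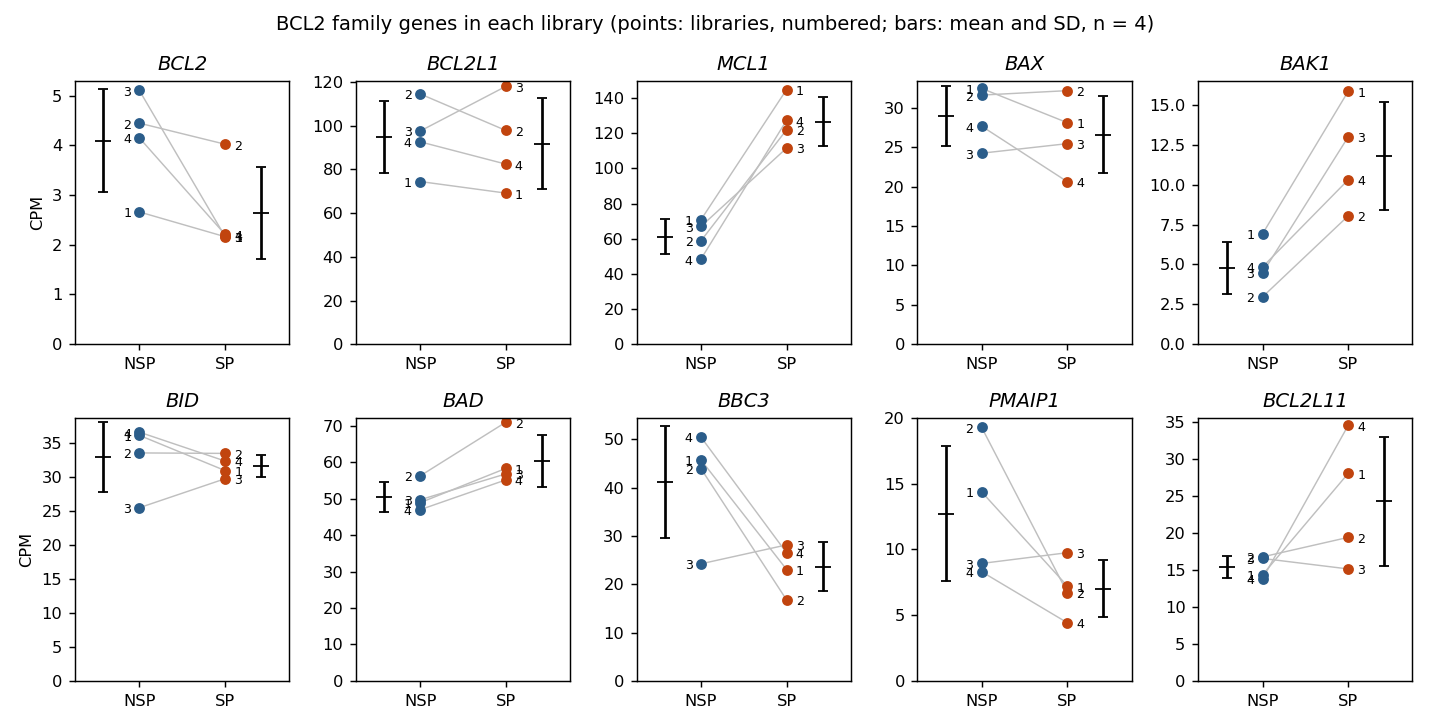
CPM of each of the 10 genes in the 4 NSP and 4 SP libraries, with the replicate number beside each point, a grey line joining libraries of the same number, and a black bar for the mean and SD (n = 4). MCL1 and BAK1 have every SP library above every NSP library, whereas BBC3, PMAIP1 and BCL2L11 overlap through the libraries numbered 3.

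MCL1 (ENSG00000143384.8), the short-lived survival protein, lies on the minus strand of chromosome 1 (150533371 to 150552214; all gene positions are on GRCh37). Its CPM was 145, 122, 112 and 127 in SP libraries 1 to 4 and 70.7, 58.8, 67.0 and 48.4 in NSP libraries 1 to 4. Every SP library was above every NSP library, and within each replicate number the SP library was higher, by 0.73 to 1.38 on the log2(CPM + 1) scale. Mean CPM was 126 ± 13.9 and 61.2 ± 9.90 for SP and NSP (SD, n = 4 each), from 173 to 206 and 70 to 133 counts. In bulk libraries such as these, fewer cells that express a gene and less of its RNA per cell cannot be told apart. The log2 fold change was 1.04 (95% interval 0.69 to 1.39, adjusted p = 0.00298 from edgeR), and permuting the libraries exactly, two-sided, gave p = 0.0286, the smallest that 4 against 4 allows. MCL1 was called under all 15 alternative fits, with log2 fold changes of 0.94 to 1.11. It was 1.04 with the mitochondrially encoded genes left out of the library sizes. Its exons share 43 bp with exons of ADAMTSL4 on the plus strand, which had 144 to 233 counts in SP and 159 to 250 in NSP libraries and a log2 fold change of 0.13 (adjusted p = 0.748 from edgeR). They also share 328 bp with ADAMTSL4-AS1 on the same strand as MCL1, which had 0 to 2 counts in SP and 0 to 3 in NSP libraries. How reads that fit both genes were counted is not stated.

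BCL2L1 (ENSG00000171552.8; chromosome 20, 30252255 to 30311792, minus strand), which encodes BCL-XL, was the member with the most counts, 1231 over the 8 libraries. Its values ran from 69.2 to 118 CPM in SP cells and from 74.5 to 115 CPM in NSP cells, so the groups lay across each other. The log2 fold change was -0.04 (95% interval -0.44 to 0.36, adjusted p = 0.944 from edgeR), an interval that holds changes of up to 1.28-fold higher and 1.36-fold lower in SP cells. No exon of another gene of the count table lies across its exons, and genes outside it were not examined. BCL2 (ENSG00000171791.10; chromosome 18, 60790579 to 60987361, minus strand), the founding survival gene, held between 3 and 6 counts in SP and between 5 and 9 in NSP libraries and was too sparse to be tested. Its CPM was 2.16, 4.02, 2.17 and 2.21 in SP libraries 1 to 4 and 2.66, 4.44, 5.10 and 4.15 in NSP libraries. The ranges overlapped, although SP was lower within all 4 replicate numbers, with differences of -0.95 to -0.12 on the log2(CPM + 1) scale. The fit without a filter on low counts gave a log2 fold change of -0.63 (adjusted p = 0.639 from edgeR).

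Summed over the 3 survival genes, CPM per kb of exon was 39.9 to 46.2 in SP libraries and 29.3 to 37.1 in NSP libraries, so the sums did not overlap. Those of both effectors (12.6 to 18.0 in SP and 11.4 to 15.7 in NSP libraries) and of the 5 BH3-only genes (55.1 to 60.4 and 49.0 to 65.7) did overlap. The survival sum follows MCL1, which was already called. The share of MCL1 in this sum was 48.3% ± 8.28 in SP cells and 30.3% ± 6.24 in NSP cells (SD, n = 4 each), and that of BCL2L1 was 51.2% ± 8.26 and 68.7% ± 6.11. BCL2 made up 0.493% and 0.984% of it. These are shares of assigned counts, and whether they hold for the mRNAs or the proteins was not tested.

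The effector BAK1 (ENSG00000030110.8; chromosome 6, 33540324 to 33548070, minus strand) had 15.9, 8.04, 13.0 and 10.3 CPM in SP libraries 1 to 4 and 6.92, 2.96, 4.46 and 4.84 CPM in NSP libraries 1 to 4. The lowest SP library lay above the highest NSP library, and SP was higher within all 4 replicate numbers. These values stand on only 12 to 24 counts in SP and 6 to 13 in NSP libraries. The filter on low counts asks for 6.36 CPM in at least 4 libraries, which BAK1 passed in 4 SP libraries and 1 NSP library, so it entered the test through the group in which it is high. Its log2 fold change was 1.29 (95% interval 0.56 to 2.02, adjusted p = 0.0479 from edgeR; exact permutation p = 0.0286). With a library left out the call held in 1 of 8 fits, the one without NSP replicate 1, where the log2 fold change was 1.54. The lowest value, 1.09, was found without NSP replicate 2 (adjusted p = 0.171). DESeq2 did not call it either (adjusted p = 0.101), and the replicate block did (adjusted p = 0.00379). A pseudogene, BAK1P1 on chromosome 20, held 0 to 6 counts per library, and how reads that match both were counted is not stated. Its exons share 91 bp with GGNBP1 on the plus strand, which was at 0 in all libraries.

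BAX (ENSG00000087088.15; chromosome 19, 49458072 to 49465055, plus strand), the other effector, ran from 20.6 to 32.2 CPM in SP cells and from 24.2 to 32.4 CPM in NSP cells. The log2 fold change of BAX was -0.13 (95% interval -0.57 to 0.31, adjusted p = 0.823 from edgeR). BAK1 made up 34.2% ± 7.79 of the summed CPM per kb of both effectors in SP cells and 16.1% ± 4.36 in NSP cells (SD, n = 4 each). Whether the BAK1 and BAX fold changes differ from each other was not tested.

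**Figure D2:**
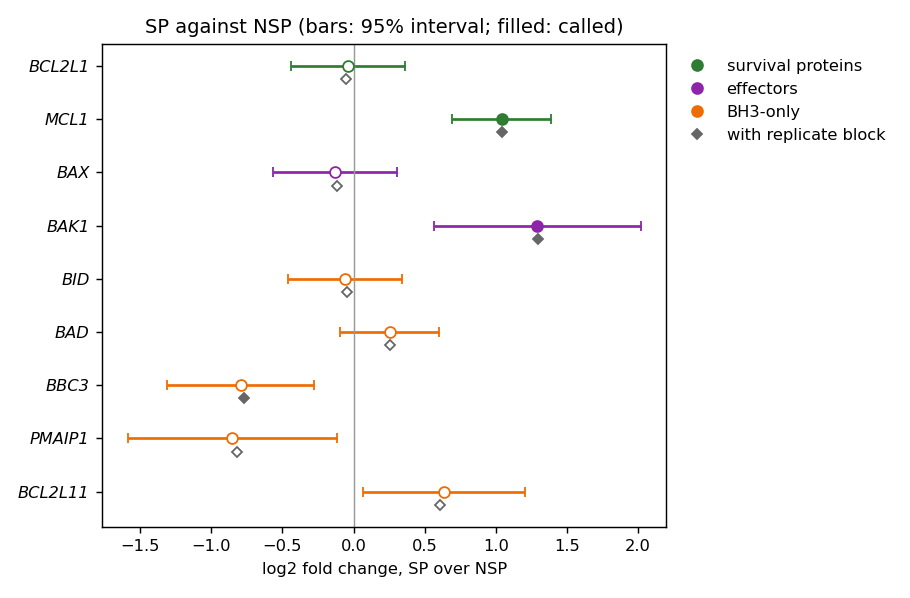
Log2 fold change of SP over NSP for the 9 tested genes, coloured by role, with 95% intervals from edgeR (circles, filled where called) and the value with the replicate block (grey diamonds, filled where called). Only MCL1 and BAK1 are called in the fit without a block, and BBC3 joins them with it.

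Among the BH3-only genes, 0 of 5 were called without the block, by edgeR or by DESeq2, and 3 of 5 (BBC3, PMAIP1 and BCL2L11) had an unadjusted p under 0.05 in edgeR, as did 16.4% of all genes tested. BBC3 (ENSG00000105327.11; chromosome 19, 47724079 to 47736023, minus strand) encodes PUMA, a potent BH3-only protein. Its CPM was 23.1, 16.8, 28.2 and 26.5 in SP libraries 1 to 4 and 45.7, 44.0, 24.2 and 50.5 in NSP libraries 1 to 4. The NSP libraries numbered 1, 2 and 4 lay above all SP libraries, while NSP replicate 3 lay among them. The means were 23.6 ± 5.04 and 41.1 ± 11.6 CPM (SD, n = 4 each), with a log2 fold change of -0.79 (95% interval -1.31 to -0.28, adjusted p = 0.0911 from edgeR; exact permutation p = 0.0857). With the replicate block the log2 fold change was -0.77 and BBC3 was called (adjusted p = 0.00363). BBC3 passed as well when no low-count filter was applied (-0.82) and when NSP replicate 3 was left out (-0.98). The microRNA gene MIR3191, which lies across 80 bp of its exons on the other strand, had at most 3 counts in any library.

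PMAIP1 (ENSG00000141682.11; chromosome 18, 57567228 to 57571537, plus strand) encodes NOXA, the BH3-only partner of MCL1. Its CPM was 7.21, 6.70, 9.75 and 4.42 in SP libraries 1 to 4 and 14.4, 19.3, 8.93 and 8.30 in NSP libraries 1 to 4. The pattern over replicate numbers was that of BBC3: SP was lower within numbers 1, 2 and 4 and higher within number 3. The log2 fold change was -0.85 (95% interval -1.59 to -0.12, adjusted p = 0.222 from edgeR; exact permutation p = 0.0857), with SP counts of 6 to 18 and NSP counts of 12 to 39. PMAIP1 was called under none of 14 alternative fits, and its lowest adjusted p among them, 0.0718, came with the replicate block. No exon of another gene of the count table lies across it, and genes outside it were not examined.

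BCL2L11 (ENSG00000153094.17; chromosome 2, 111876955 to 111926021, plus strand) encodes BIM, which can bind all survival members. SP libraries 1 to 4 had 28.1, 19.4, 15.2 and 34.6 CPM and NSP libraries 1 to 4 had 14.4, 16.8, 16.6 and 13.8 CPM. SP replicate 3 fell among the NSP libraries, and the other SP libraries lay above them. The spread was wider in SP cells (24.3 ± 8.71 CPM) than in NSP cells (15.4 ± 1.51 CPM, SD, n = 4 each), a difference in spread that was not tested. The log2 fold change was 0.64 (95% interval 0.07 to 1.21, adjusted p = 0.241 from edgeR; exact permutation p = 0.0857), and 0.41 without SP replicate 4. BCL2L11 was called in 0 of 15 alternative fits, with adjusted p-values of 0.0770 to 0.523. Its exons share 727 bp, or 10.8% of their length, with MIR4435-2HG on the minus strand, which had 2 to 3 counts in SP and 6 to 10 in NSP libraries.

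BID and BAD link the family to other signals, BID through cleavage by caspase-8 and BAD through phosphorylation by survival kinases. BID (ENSG00000015475.14; chromosome 22, 18216904 to 18257536, minus strand) ran from 29.8 to 33.5 CPM in SP cells and from 25.5 to 36.6 CPM in NSP cells (log2 fold change -0.06, 95% interval -0.46 to 0.34, adjusted p = 0.914 from edgeR). BAD (ENSG00000002330.9; chromosome 11, 64037302 to 64052176, minus strand) ran from 55.2 to 71.0 and from 47.0 to 56.3 CPM. SP was higher than NSP within all 4 replicate numbers for BAD, but only by 0.19 to 0.33 on the log2(CPM + 1) scale (log2 fold change 0.25, 95% interval -0.09 to 0.60, adjusted p = 0.484 from edgeR). BAD shares 404 bp, or 23.7% of its exon length, with GPR137 on the plus strand, which held 773 to 982 counts in SP and 772 to 1287 in NSP libraries and had a log2 fold change of -0.05 (adjusted p = 0.906 from edgeR). How many BAD reads came from that overlap was not tested.

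The order of the mean levels, compared as CPM per kb of exon, differed between the populations for MCL1, BBC3, BAK1 and PMAIP1. It is an order of assigned counts, not shown to be one of mRNA levels. In SP cells BAD was at the top with 35.3 ± 4.24, followed by BCL2L1 (21.9 ± 5.01) and MCL1 (20.3 ± 2.24), whose ranges overlapped, and then by BAX (10.3 ± 1.87), BBC3 (7.42 ± 1.58) and BID (7.16 ± 0.368). In NSP cells MCL1 stood in 5th place at 9.84 ± 1.59 CPM per kb, and its range overlapped those of its neighbours BAX and BID, while BBC3 was in 3rd place at 12.9 ± 3.63 (SD, n = 4). BAK1, BCL2L11 and PMAIP1 were below 6 CPM per kb on average in both populations, with BAK1 in 7th place in SP and 9th in NSP cells and PMAIP1 in 9th and 7th place, and BCL2 was last at 0.209 ± 0.0731 in SP and 0.324 ± 0.0819 in NSP cells. From BAX down to PMAIP1 in SP cells, and from BBC3 down to PMAIP1 in NSP cells, each range overlapped the next. The ranges of BCL2L11 and BAK1 in NSP cells overlapped too, and differences in order were not tested. BAD and BCL2 were set apart from their neighbours by ranges that did not overlap in either population. The BAD level includes any reads of the GPR137 overlap.

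Ratios of binding partners within a library do not depend on the library size and were taken per kb of exon. The ratio of the counts assigned to PMAIP1 to those of MCL1 was 0.142, 0.156, 0.249 and 0.0987 in SP libraries 1 to 4 and 0.578, 0.933, 0.380 and 0.488 in NSP libraries 1 to 4. All SP libraries were below all NSP libraries, including those numbered 3, in which PMAIP1 alone was slightly higher in SP. The lower ratio in number 3 therefore follows MCL1, which was already called, and PMAIP1 itself was not called. The ratio of BAX to BCL2L1 was 0.487 ± 0.138 in SP and 0.510 ± 0.135 in NSP cells, and that of BAK1 to MCL1 was 0.262 ± 0.0670 and 0.221 ± 0.0681 (SD, n = 4 each), with overlapping libraries for both. No test was run on these ratios, since MCL1 was already known to differ.

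**Figure D3:**
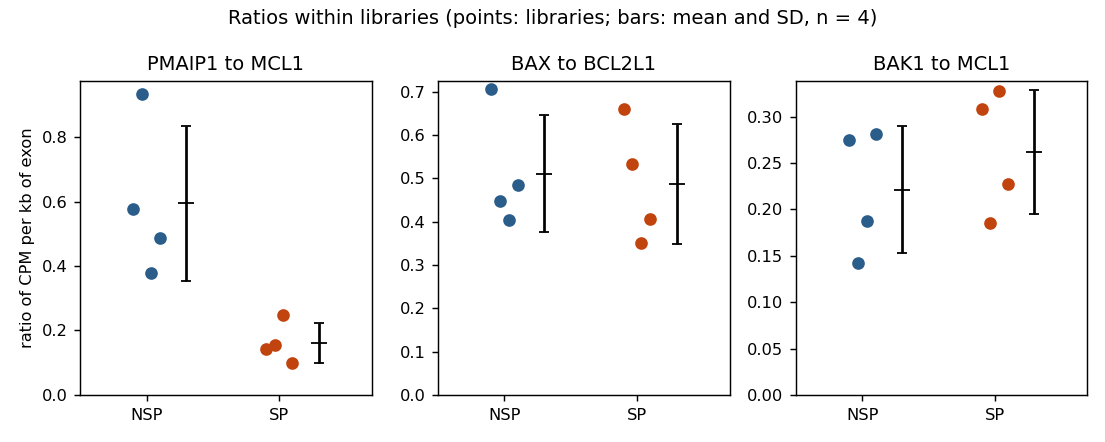
Ratio of CPM per kb of exon of PMAIP1 to MCL1, of BAX to BCL2L1 and of BAK1 to MCL1 in each NSP and SP library, with the mean and SD (n = 4). The PMAIP1 to MCL1 ratio is at most 0.249 in SP libraries and at least 0.380 in NSP libraries, and the other ratios overlap.

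Among the genes around the family, FADD alone was called, from the counts assigned to its name. Calls made up 3.66% of all genes tested, and 1 call over the lists below is not above that share. Of 14 other BCL2 family genes, 7 were tested and 0 were called by edgeR, with or without the replicate block, and the median log2 fold change was 0.18. They ran from BCL2L12 at -0.45 (unadjusted p = 0.0313, adjusted p = 0.242 from edgeR) to BOK, an effector-like member, at 0.41 (adjusted p = 0.45). BCL2L2, which encodes the survival protein BCL-w, had a log2 fold change of 0.31 (95% interval -0.22 to 0.84). BCL2A1, BCL2L10, BIK, HRK, BMF, BCL2L14 and BCL2L15 were too sparse to be tested. All 7 genes listed as outer membrane partners were tested and 0 were called by edgeR. Their median was 0.27 and 6 of 7 were above 0. They included VDAC3 at 0.60 (adjusted p = 0.414 from edgeR), VDAC2, which holds BAK1 at the membrane, at 0.45 (adjusted p = 0.347 from edgeR), and PGAM5 at -0.13. That list also holds BCAP31 (0.09) and TMBIM6 (0.16), whose proteins sit in the endoplasmic reticulum. At an unadjusted p under 0.05, edgeR called 0 of these 7 genes and 1 of the 7 other family genes. Of all genes tested, 16.4% were under that value.

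Of 16 genes of the apoptosome, the caspases and their inhibitors, only 6 had enough reads to be tested, and 0 were called by edgeR at the adjusted threshold and 0 at an unadjusted p under 0.05. The median was 0.03, between HTRA2 at -0.15 and BIRC5, the inhibitor survivin, at 0.24. In the death receptor arm, 8 of 10 genes were tested, and the counts assigned to FADD were called higher. FADD is the adaptor that brings caspase-8 to death receptors. FADD had 26.7, 34.2, 38.4 and 40.5 CPM in SP libraries 1 to 4 and 8.51, 22.2, 22.3 and 13.1 CPM in NSP libraries 1 to 4. The FADD groups did not overlap, as for 9.75% of all genes tested. Its log2 fold change was 1.07 (95% interval 0.49 to 1.66, adjusted p = 0.0422 from edgeR), with adjusted p-values of 6.26e-05 to 0.105 over the alternatives, and with a library left out it was called in 2 of 8 fits, those without SP replicate 1 or NSP replicate 3. The counts under FADD were 37 to 71 in SP and 16 to 45 in NSP libraries. FADD shares 1011 bp of its 1708 bp of exons with ENSG00000254721 on the other strand, which had 292 to 807 counts per library. ENSG00000254721 was not called by edgeR, with an adjusted p of 0.293 at a log2 fold change of 0.50. If reads were assigned to the opposite strand, FADD mRNA reads from the overlap would be counted under ENSG00000254721, and that gene's reads under FADD. Whether FADD mRNA differs between the populations was not tested. TNFRSF10B, a receptor, was lowest of the list, with a log2 fold change of -0.20 (adjusted p = 0.776 from edgeR). The receptors FAS, at 0.44 (adjusted p = 0.701 from edgeR), and TNFRSF1A, at 0.16, were not called either. Of 14 upstream regulators, 8 were tested and 0 were called by edgeR. At an unadjusted p under 0.05 there were 0 as well, against 16.4% of all genes tested. AKT1 was highest at 0.25 and ATF4 lowest at -0.42 (adjusted p = 0.425).

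**Figure D4:**
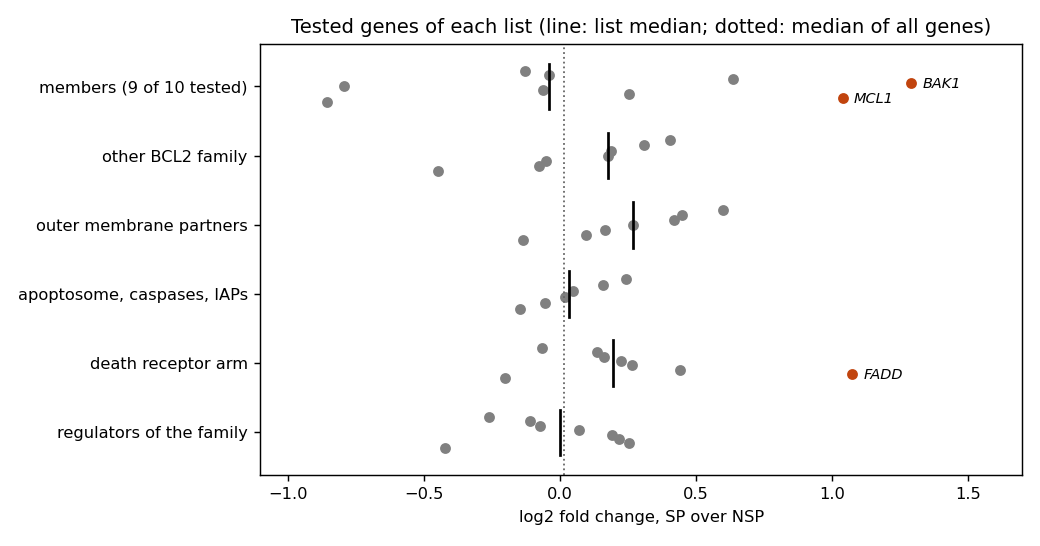
Log2 fold change of SP over NSP for each tested gene of the family and of 5 lists around it, with list medians as black lines and the median of all 9309 genes (0.015) as a dotted line. Called genes are named, and they are MCL1, BAK1 and FADD.

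The largest move of a member's log2 fold change under another scaling of the libraries was 0.021. Leaving out single libraries moved them further, from 1.09 to 1.54 for BAK1, from -1.07 to -0.58 for PMAIP1 and from 0.41 to 0.82 for BCL2L11, and the sign of BCL2L1 turned in 3 of 8 such fits. BAK1 was called in 6 of 14 alternative fits and BBC3 in 3 of 15.

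**Figure D5:**
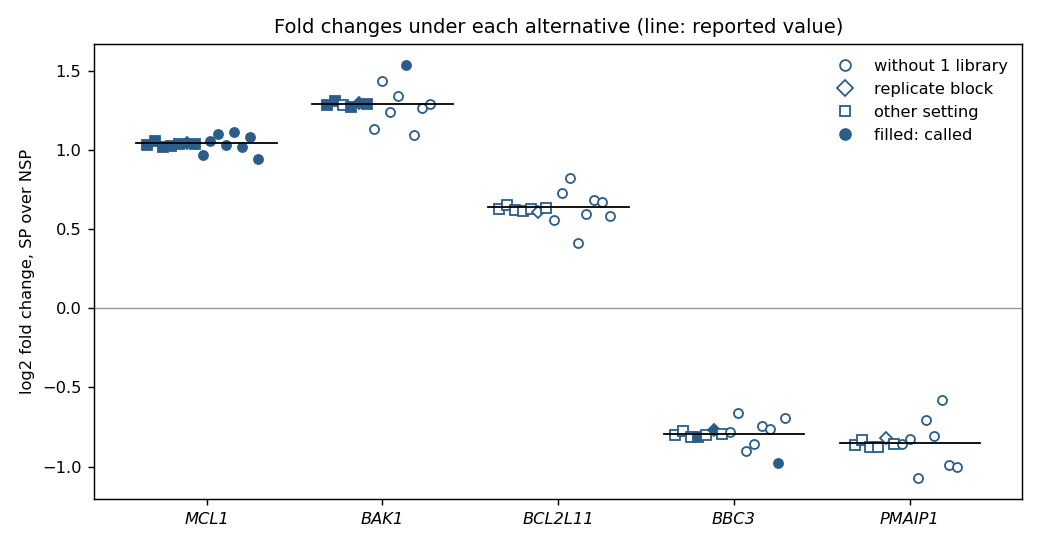
Log2 fold change of the 5 genes with the largest values of either sign under each alternative fit (circles: without a library; diamonds: replicate block; squares: other settings; filled where called), with the reported value as a line. MCL1 stays between 0.94 and 1.11 and is called in every fit shown, and no gene shown changes sign.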

How the data were processed

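The authors sequenced mRNA libraries of sorted J82 SP and NSP cells (single-end, 50 bp), aligned the reads to hg19 with STAR and assigned them to gencode version 19 genes with featureCounts. The deposited counts are raw and per gene, for 8 libraries in 1 table. The strand setting and the handling of multi-mapping reads are not given in the sources used here. Symbols, positions, exon lengths and exon overlaps came from the GENCODE annotation lifted to GRCh37, which matched 96.1% of the 57820 genes and is newer than the one used for counting. The lengths behind all values per kb may therefore differ from those over which reads were counted. Sums, shares, orders and ratios per kb carry this limit, and its size was not tested. Overlaps were sought only among genes of the count table.

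The deposited counts were fitted with edgeR 4.0.16 in R 4.3.3 (TMM, filterByExpr with a minimum count of 10, glmQLFit, glmQLFTest) on all libraries without a covariate. DESeq2 1.42.0 served as an alternative, beside other scalings and filters, the replicate number as a block, and each library left out in turn. For each member, log2(CPM + 1) was permuted exactly over the libraries (two-sided) in scipy 1.17.1. Both count tools were checked on simulated data. Deviations from the group means correlated between same-numbered SP and NSP libraries (0.380, 0.203, 0.322 and 0.321), all over 0.1, and the number was used as a pairing in the alternative with a block. Libraries of unlike number were not compared in this way, so the pairing was not shown. Replicates differed by more than the sampling noise (chi-square per degree of freedom 4.87 to 11.0).

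The members and the gene lists were chosen with earlier results of these data known. Named are all members, called genes of the pathway lists and the highest and lowest gene of each, plus ABCB1 and ABCG2. Other genes were chosen after their values were seen. Some genes of the lists and 1 promoter motif are not reported here.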

Additional observations from a re-analysis of the deposited data

Results flagged for a closer look

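Of 26 groups of 4 libraries examined (the CPM of the 10 genes and the 3 ratios), 1 had a library that stood apart from its 3 fellows, and about 1.3 such groups arise by chance, at 1 in 20. This was BCL2 in SP cells, where replicate 2 was the high library and its gap to the next was 0.975 of the range. The counts behind it were 6 in replicate 2 and 3 to 4 in the others, so the gap spans 2 or 3 reads.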

How the results depend on the processing

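MCL1 kept its direction and its call in all 15 alternative fits. Of 133 values of single members under the alternatives, 119 kept their direction and their side of the threshold, 8 lost the call, all of BAK1, 3 gained it, all of BBC3, and 3 changed sign, all of BCL2L1, whose log2 fold change was -0.19 to 0.073 with single libraries left out. With the replicate block, 548 genes were higher and 652 lower in place of 152 and 189, and 1 member, BBC3, was called lower in place of 0. No other member's call was altered by the block. Without a filter on low counts there were 303 genes higher and 381 lower, and 1 member lower, BBC3. DESeq2, and the filter of at least 10 counts in every library, which does not test BAK1, called 1 member higher in place of 2. With single libraries left out, the members called higher were 1 to 2 and those lower 0 to 1, and all genes called were 69 to 164 higher and 89 to 181 lower. The lowest of these came without NSP replicate 2, followed by those without SP replicate 2 (91 and 110), and without NSP replicate 1 there were 93 higher. DESeq2's size factors, upper-quartile normalization, leaving out mitochondrially encoded genes and dropping the fold cutoff changed no call of a member. Causes of these changes were not tested. Depth limits BCL2, PMAIP1 and BAK1 most, with 44, 136 and 105 counts over all libraries.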
